A study of Mus musculus with 9 samples.

Results

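C5aR- LysoDC were set against LysoMac across the whole transcriptome of phagocytes sorted from Peyer's patches (lymphoid follicles in the wall of the small intestine) of mice. The comparison took its members by array title: 3 arrays titled as C5aR- LysoDC and 3 titled as LysoMac, 6 of the 9 arrays of the series. All 33793 transcript clusters of the array, the probe sets that each stand for a gene or transcript, were tested on the log2 scale. Of these, 23521 carried exactly 1 gene symbol and gave 22180 genes. The other 3 arrays hold C5aR+ LysoDC, which entered the fit to estimate the spread and are given beside the compared populations.

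LysoDC and LysoMac are the dendritic cells and macrophages of the patch that contain lysozyme, and C5aR is the receptor for the complement fragment C5a, encoded by C5ar1. CD11c+ cells were first selected with magnetic beads and then sorted, with MHC class II, CD4, C5aR, BST2, SIRP and again CD11c as the antibody targets. Sort gates are not stated in the labels, nor are the strain, age and sex of the mice, how many were pooled, or whether each array stands for a separate animal. No treatment or genotype is named for any group, so C5aR- here means sorted as lacking the receptor, not a deletion of it.

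Lysozyme-expressing phagocytes lie mostly in the dome under the follicle epithelium, where they take up material that M cells carry across. Dendritic cells cut up such material, load it on MHC class II, follow CCR7 to the T cell zones and present it there, and conventional dendritic cells depend on the growth factor receptor FLT3. Macrophages of the gut clear dying cells and bacteria in place, rely on lysosomes for digestion and carry receptors such as MERTK for the uptake of apoptotic cells.

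The arrays were alike in level, with medians between 3.39 and 3.65, but LysoMac arrays resembled each other less than C5aR- LysoDC arrays did. The mean correlation of an array with its own population, over all clusters, was 0.948 to 0.965 in LysoMac and 0.977 to 0.980 in C5aR- LysoDC. LysoMac array 3 correlated better with C5aR- LysoDC (0.963) than with the other LysoMac arrays (0.954). LysoMac array 1 correlated better with C5aR+ LysoDC (0.969) than with its own population (0.965). Among LysoMac arrays, array 2 had the lowest correlation with LysoMac (0.948), C5aR+ LysoDC (0.941) and C5aR- LysoDC (0.925). Array 2 also enters the own-population values of LysoMac arrays 1 and 3. Within-population variance averaged 0.179 over clusters for LysoMac and 0.0854 for C5aR- LysoDC. Since the test uses 1 variance for all populations, its p-values in this comparison tend to be too small, and results with and without single arrays are given below.

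The genes of the sort antibodies checked the labels in part. C5ar1 read 4.62, 4.19 and 4.99 in LysoMac, 4.92, 4.09 and 5.04 in C5aR+ LysoDC and 3.04, 2.72 and 3.27 in C5aR- LysoDC, where all 3 values lay below the median of every array. Cd4 was high in LysoMac, at 7.31, 6.20 and 7.88, and low in C5aR- LysoDC, at 4.62, 4.39 and 4.32. Differences in C5ar1 (-1.59 ± 0.29, adjusted p = 0.0379, setting maximum 0.17), in Cd4 (-2.69 ± 0.36, adjusted p = 0.00964, setting maximum 0.0563) and in the MHC class II genes can follow from the sort itself and are no independent result. Itgax, which encodes CD11c, differed by 0.31 ± 0.31 and Bst2 by -0.34 ± 0.35, and neither passed. Lyz2 was bright in all 9 arrays, between 10.35 and 11.41, and differed by -0.68 ± 0.18 (adjusted p = 0.14).

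In C5aR- LysoDC 381 transcript clusters were higher than in LysoMac (1.13% of those tested) and 137 were lower (0.405%), at an adjusted p under 0.05. Counted as genes, 324 rose (1.46% of 22180) and 109 fell (0.491%). These shares over all genes are the background for the counts of list members called below. The share of all genes above or below 0 was not computed. The arrays of both populations did not overlap in any called cluster, which was also true of 14.2% of all clusters. The median rise was 1.66 on the log2 scale and the median fall was -1.38, while the median over all genes was -0.04. Increases outnumbered decreases, making up 73.6% of the calls, but they made up 61.4% after quantile normalization (436 and 274 clusters) and 60.4% after cyclic loess (444 and 291). With 1 weight per array the direction turned, 2991 clusters being higher and 3691 lower (44.8% higher). For 54 of the genes that rose (in LysoMac) and 9 of those that fell (in C5aR- LysoDC), the population's mean lay below every array median. Such signal may lie near background, so the size of the difference is less certain. Genes with such a mean are called dim below, and the LysoMac mean is meant unless another population is named.

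**Figure D1:**
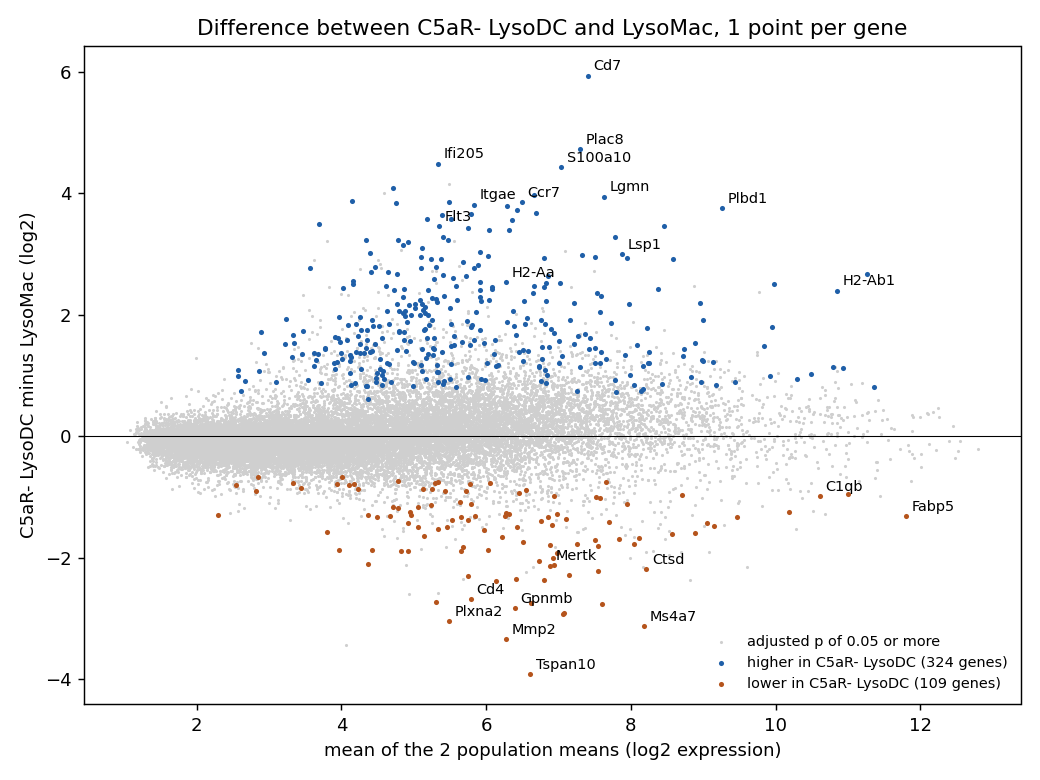
Each point is a gene, with the mean of the LysoMac and C5aR- LysoDC means (log2) on the horizontal axis and C5aR- LysoDC minus LysoMac (log2) on the vertical axis. Blue points mark the 324 genes that rose and orange points the 109 that fell, and the increases reach farther from 0 (5.94 for Cd7) than the decreases (-3.92 for Tspan10).

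The counts leaned on single arrays. Without LysoMac array 1 the increases and decreases numbered 126 and 35, without LysoMac array 2 they numbered 219 and 144, and without LysoMac array 3 they rose to 822 and 434. Leaving out C5aR- LysoDC arrays 1, 2 or 3 left 215 and 68, 108 and 22, or 258 and 62. Even arrays outside the comparison counted, through the estimate of the spread: 226 and 75 were called when C5aR+ LysoDC array 2 was dropped, and 257 and 94 when array 1 of that population was. Of 130 named genes that passed, 45 passed in each of 16 other settings, which were 9 left-out arrays, 3 other scalings, the replicate block, 1 weight per population, the 2 populations alone and the mean of a gene's clusters. Those 45 include Itgae, Cd7, Ccr7, Flt3, Mertk and Ctsd. The others lost calls most often without C5aR- LysoDC array 2 (78 lost) and without LysoMac array 1 (70 lost), and none changed sign. For the other named genes, the highest adjusted p over the 16 settings is given below as the setting maximum. It was not computed for Adam8, Btla, Cadm1, Cd24a, Ciita, Gpr141b, H2-DMb2, H2-Oa, Kif11, Mcm6, Mmp25, Top2a and Wdfy4. Nor was it computed for the genes under Other observations, except Serpinb6b. Where it was not computed, its absence beside a gene says nothing about other settings.

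**Figure D2:**
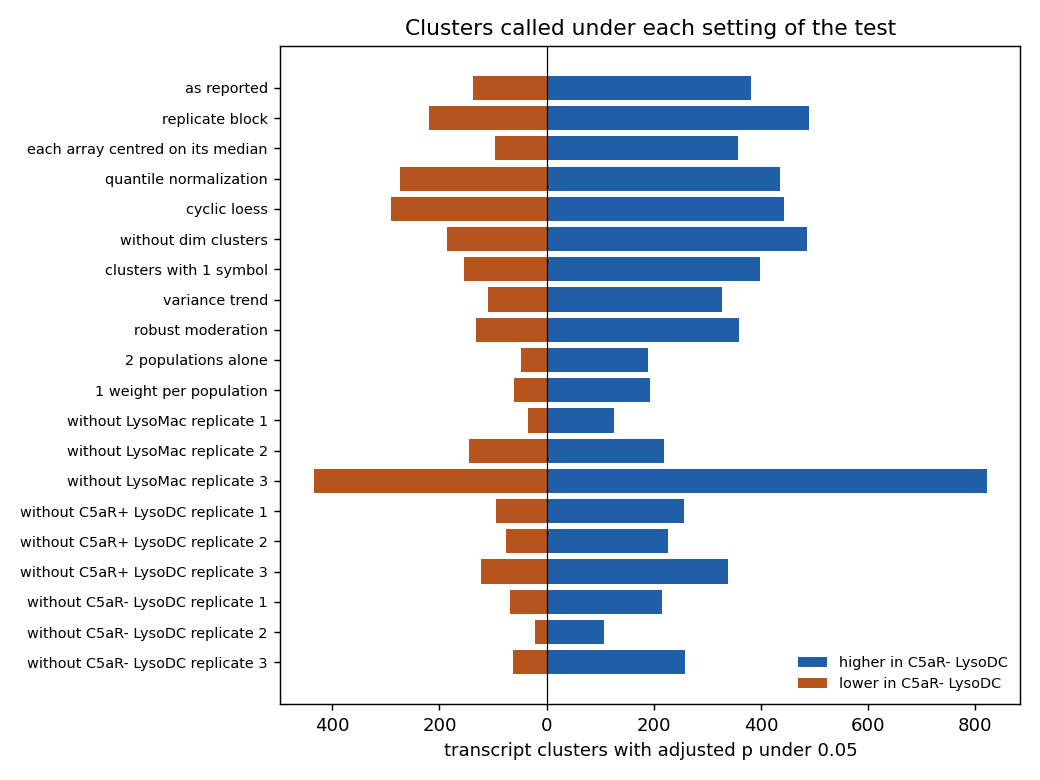
Bars show the number of transcript clusters with an adjusted p under 0.05, higher in C5aR- LysoDC to the right of 0 and lower to the left, for the test as reported and for each other setting except weights per array. Counts ran from 108 to 822 on the right and from 22 to 434 on the left, with the extremes among the settings that leave out an array.

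Several surface receptors of conventional dendritic cells were higher in C5aR- LysoDC. Itgae encodes CD103, an integrin chain that binds E-cadherin, and read 4.18, 3.69 and 3.90 in LysoMac and 7.61, 7.94 and 7.66 in C5aR- LysoDC. Its 3 values were close together in each population and far apart between them, a rise of 3.82 ± 0.18 (SE, n = 3 per population), or 14.1-fold (adjusted p = 7.53e-05). Cd7, an immunoglobulin-family receptor best known from T and natural killer cells, read 5.41, 4.95 and 2.95 in LysoMac and 11.09, 10.35 and 9.68 in C5aR- LysoDC. LysoMac array 3 was the lowest of all, yet the highest LysoMac array still lay far under the lowest C5aR- LysoDC array, and the rise of 5.94 ± 0.59 (61.3-fold, adjusted p = 0.00303) was the highest among named genes. Flt3 read 3.85, 3.52 and 3.49 in LysoMac and 6.54, 8.02 and 6.68 in C5aR- LysoDC, rising by 3.46 ± 0.34 (adjusted p = 0.00303), with C5aR- LysoDC array 2 above the other arrays.

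Of 27 measured genes of the conventional dendritic cell list 11 rose (40.7%, against 1.46% of all genes) and 0 fell, and the median difference was 1.10. Lectin receptors that bind galactose-type sugars were among them: Mgl2 read 3.95, 4.34 and 3.60 in LysoMac and 7.88, 7.48 and 7.49 in C5aR- LysoDC, and Clec10a, dim in LysoMac, 2.90, 3.79 and 3.14 and 6.91, 6.37 and 5.99. They rose by 3.66 ± 0.23 (adjusted p = 0.00035) and 3.15 ± 0.42 (adjusted p = 0.00948, setting maximum 0.0526). The lysophospholipid-receptor-like gene P2ry10 rose by 3.39 ± 0.29, and Btla, an inhibitory receptor that is dim in LysoMac, by 2.78 ± 0.33 (adjusted p = 0.00587). Cadm1, an adhesion molecule of cross-presenting dendritic cells, and Wdfy4, which those cells need for cross-presentation, rose by 2.21 ± 0.26 and 2.31 ± 0.39, as did Cd24a by 2.40 ± 0.43 and the dim Gpr141b by 1.10 ± 0.18. Not every gene of that subset moved: Xcr1 read 3.36, 3.81 and 3.44 in LysoMac and 3.60, 3.72 and 3.60 in C5aR- LysoDC (0.10 ± 0.31, adjusted p = 0.906). Ly75 and Kmo differed by 2.37 ± 0.65 and 2.11 ± 0.56 and Cd209a by -1.17 ± 0.38, none passing, and Zbtb46, the transcription factor that marks conventional dendritic cells, missed the threshold at 1.05 ± 0.21 (adjusted p = 0.0505). The count of 11 became 7 without C5aR- LysoDC array 2 and 8 to 13 without any other array.

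**Figure D3:**
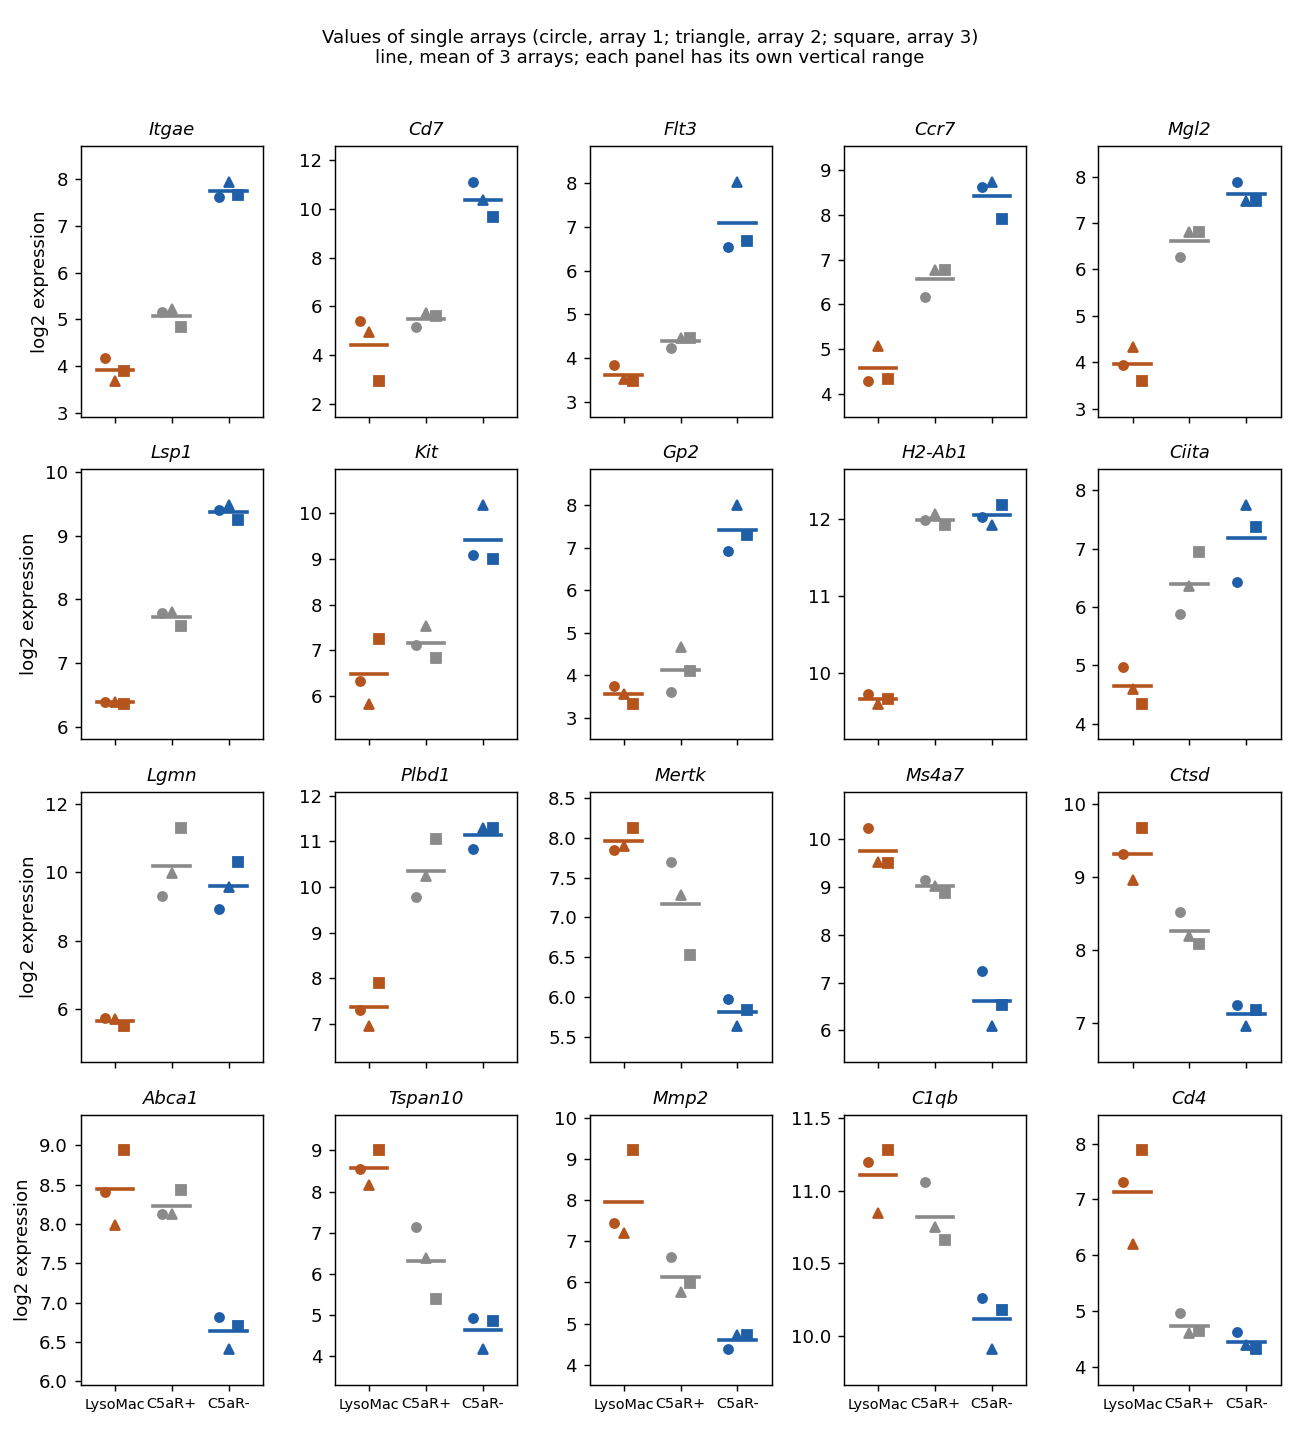
Each panel shows the log2 values of 1 gene in the 9 arrays, with LysoMac in orange, C5aR+ LysoDC in grey and C5aR- LysoDC in blue, the array number as the symbol and the mean of 3 arrays as a line. C5aR- LysoDC lie above LysoMac without overlap for Itgae through Plbd1 and below for Mertk through Cd4, and C5aR+ LysoDC lie near C5aR- LysoDC for H2-Ab1 and Lgmn but near LysoMac for Flt3 and Gp2.

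Several MHC class II genes rose, along a pathway that runs from the transactivator Ciita through the class II chains to the chaperones that load peptide. H2-Ab1, the beta chain of I-A, read 9.71, 9.60 and 9.65 in LysoMac and 12.03, 11.93 and 12.19 in C5aR- LysoDC. H2-Aa, its alpha chain, read 5.06, 5.13 and 4.84 and 7.54, 7.45 and 7.65, and H2-Eb1, the beta chain of I-E, 9.02, 8.31 and 8.87 and 11.24, 11.20 and 11.27. The spread within each population was small beside the gaps of 2.40 ± 0.13, 2.54 ± 0.14 and 2.50 ± 0.18 (adjusted p = 0.000109, 0.000127 and 0.000808), and MHC class II was itself a target of the sort. H2-Ea, which RefSeq lists as a transcribed pseudogene in its reference strain, rose by 2.67 ± 0.29. Ciita read 4.97, 4.60 and 4.35 in LysoMac and 6.42, 7.75 and 7.38 in C5aR- LysoDC and rose by 2.54 ± 0.37 (adjusted p = 0.013).

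Of 16 measured genes of the MHC class II list 8 rose (50.0%, against 1.46% of all genes) and 0 fell, with a median of 1.29. When single arrays were left out, 6 to 9 rose. Among the peptide-loading chaperones H2-DMb2 rose by 1.79 ± 0.20 and H2-DMb1, dim in LysoMac, by 1.66 ± 0.17; the genes are near-identical copies, so probes may not fully separate them. H2-DMa, the partner chain, differed by 0.92 ± 0.26 (adjusted p = 0.152). H2-Oa, which restrains that loading step, rose by 1.85 ± 0.30 (adjusted p = 0.021). H2-Ob, its partner, differed by 0.80 ± 0.28, and the promoter factors Rfx5, Rfxap and Rfxank by -0.07, 0.67 and 0.05, none passing. Markers of B cells, which also carry MHC class II, moved with this list: 4 of 17 rose (Blk, Cr2, Fcrl1 and Pou2af1, by 1.82, 1.64, 1.77 and 0.62). That is 23.5%, against 1.46% of all genes. Cr2 is dim, and the setting maxima of Blk, Fcrl1 and Pou2af1 were 0.0511, 0.103 and 0.149. The mean level of the B cell list was 4.49 to 4.59 in LysoMac arrays and 5.24 to 5.28 in C5aR- LysoDC arrays. Its defining genes did not pass, with 1.21 ± 0.54 for Cd79a, -0.71 ± 0.35 for Cd79b, 0.69 ± 0.25 for Ms4a1 and 0.69 ± 0.15 for Pax5. Their part in the result was not tested, and in bulk RNA more cells of a kind and more RNA per cell cannot be told apart.

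Promoters of class II genes are known to share a Y box, an inverted CCAAT element bound by NF-Y beside the sites of the RFX complex. The letters CTGATTGG were looked for on either strand in the 250 bases before the start site, from RefSeq on GRCm38.p6. They occurred in 4 of the 12 listed class II genes with a window (33.3%: H2-Aa, H2-Eb1, H2-Eb2 and H2-Oa), against 5.05% of 16990 genes tested, 6.53% of 245 genes that rose and 2.35% of 85 that fell. A match describes letters only, and H2-Eb2 holds them although it differed by just 0.45 ± 0.23 and did not pass. The 120 bases upstream of 4 genes that rose are shown because 3 hold the match, in capitals, and the chaperone gene H2-DMb1 does not. H2-DMb2, which also rose, lacks the exact letters too and is not shown. H2-Ab1, H2-Ea and Ciita rose but had no window to search. The H2-DMb1 window does hold gtgattgg, which differs from the searched letters in the first base alone. The exact search therefore does not show that this promoter lacks a Y box. H2-Aa lies at chr17:34287824-34287943 (minus strand), H2-Eb1 at chr17:34305747-34305866, H2-Oa at chr17:34092259-34092378 and H2-DMb1 at chr17:34153071-34153190 (plus strand), all upstream of the first exon.
H2-Aa: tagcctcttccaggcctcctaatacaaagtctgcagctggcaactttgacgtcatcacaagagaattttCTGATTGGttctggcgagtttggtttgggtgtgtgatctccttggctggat
H2-Eb1: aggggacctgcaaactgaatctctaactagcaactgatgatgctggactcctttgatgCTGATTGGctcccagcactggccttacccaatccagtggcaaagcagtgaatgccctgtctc
H2-Oa: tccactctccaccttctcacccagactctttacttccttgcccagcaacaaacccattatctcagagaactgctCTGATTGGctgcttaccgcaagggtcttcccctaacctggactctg
H2-DMb1: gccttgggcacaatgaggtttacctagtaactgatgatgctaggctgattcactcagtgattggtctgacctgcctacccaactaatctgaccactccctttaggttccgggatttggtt

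MHC class I genes gave no calls. Of 19 measured genes of class I processing 0 passed, the median was -0.18, and the class I light chain gene B2m differed by -0.24 ± 0.14 and the peptide transporter gene Tap1 by -0.24 ± 0.20. At an unadjusted p under 0.05, limma gave 0 higher and 3 lower, and 0 of 19 passed in any of the 16 settings. Of all 33793 clusters, 2455 were higher and 1990 lower at that unadjusted threshold, which is the background for such counts below.

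Some genes of migration and T cell stimulation rose in C5aR- LysoDC. Ccr7, the receptor that leads mature dendritic cells into lymphoid T cell zones, read 4.29, 5.07 and 4.34 in LysoMac and 8.62, 8.73 and 7.92 in C5aR- LysoDC, a rise of 3.86 ± 0.29 (14.5-fold, adjusted p = 0.000966). Gpr183, an oxysterol receptor that positions dendritic cells, rose by 1.39 ± 0.27 (adjusted p = 0.0413, setting maximum 0.186), and Cx3cr1, the fractalkine receptor of gut macrophages, fell by 0.98 ± 0.15 (adjusted p = 0.0152, setting maximum 0.0823). Among the T cell ligands, Tnfsf9 (4-1BB ligand), dim in LysoMac, read 2.62, 3.53 and 3.79 there and 6.43, 6.35 and 6.76 in C5aR- LysoDC. It rose by 3.20 ± 0.41 (adjusted p = 0.00876), Icosl by 2.04 ± 0.29 (adjusted p = 0.0125, setting maximum 0.0687) and Cd83, a surface marker of mature dendritic cells, by 1.84 ± 0.29 (adjusted p = 0.0184, setting maximum 0.0681). The chemokine genes Ccl22 and Ccl5 rose by 1.83 and 2.22 (setting maxima 0.113 and 0.171). The co-stimulatory genes Cd80, Cd86 and Cd40 differed by 0.32 ± 0.26, 0.82 ± 0.27 and 1.02 ± 0.37, none passing, and Ccl17 by 0.00 ± 0.37.

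Over the lists, 8 of 26 genes of dendritic cell maturation and motility rose and 0 fell (median 0.48), 4 of 21 co-stimulatory and checkpoint ligands rose (median 0.32), and 2 of 28 chemokines rose (median 0.16). These are 30.8%, 19.0% and 7.14%, against 1.46% of all genes. The count of 8 fell to 3 when LysoMac array 1 was dropped and to 4 when LysoMac array 2 was. Dropping arrays 1, 2 or 3 of C5aR- LysoDC left 4, 2 or 4. Slamf1 and Slamf7, receptors of the SLAM family, were the remaining co-stimulatory calls, at 1.27 and 2.36 (setting maxima 0.0523 and 0.17), Slamf1 being dim. Dropping either LysoMac array 1 or C5aR- LysoDC array 2 took the co-stimulatory count from 4 to 1.

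Among transcription factors of dendritic cells 4 of 20 rose (20.0%, against 1.46% of all genes) and 0 fell, with a median of 0.62. Irf4, needed by the dendritic cells that prime helper T cells, read 5.96, 4.70 and 6.10 in LysoMac and 7.11, 7.79 and 7.72 in C5aR- LysoDC, with LysoMac array 2 apart from the other LysoMac arrays, and rose by 1.95 ± 0.35 (adjusted p = 0.0331, setting maximum 0.154). Batf3, needed by cross-presenting dendritic cells, rose by 1.31 ± 0.26, a call kept in 2 of 16 settings (adjusted p = 0.0467, setting maximum 0.202). Bcl11a, dim in LysoMac, rose by 1.22 ± 0.14 (adjusted p = 0.00561), while its second, dimmer cluster differed by -0.45 and the mean of both by 0.38, which did not pass (setting maximum 0.34). Etv3, an ETS-family repressor, rose by 1.28 ± 0.22, a call kept in 9 of 16 settings (setting maximum 0.132). Irf8 read 8.59, 8.59 and 8.50 in LysoMac and 8.83, 8.56 and 8.62 in C5aR- LysoDC and did not pass (0.11 ± 0.13), and Id2 differed by 1.20 ± 0.38 (adjusted p = 0.217). The count ran from 1 to 5 when single arrays were left out.

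Of 25 transcription factors tied to macrophages 2 fell (8.0%, against 0.491% of all genes) and 2 rose (8.0%, against 1.46%), with a median of -0.36. Tfec, a relative of the lysosomal regulator TFEB, fell by 1.79 ± 0.24 (adjusted p = 0.0109, setting maximum 0.0558), from 7.39, 7.89 and 8.06 in LysoMac to 5.80, 6.05 and 6.13 in C5aR- LysoDC. Mitf, of the same family, differed by -1.21 ± 0.29 (adjusted p = 0.0979) and Tfeb by 0.14 ± 0.15. The members that rose, Nr4a1 (1.91 ± 0.29) and Nr4a2 (1.31 ± 0.24), encode nuclear receptors that are also early response genes, whereas Egr1, another early response gene, fell by 0.94 ± 0.18 (setting maxima 0.0779, 0.154 and 0.175).

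Genes of macrophage identity fell in part. Mertk read 7.84, 7.89 and 8.12 in LysoMac and 5.98, 5.64 and 5.84 in C5aR- LysoDC, narrow in both populations, and fell by 2.13 ± 0.27 (adjusted p = 0.00742). Ms4a7, a membrane protein of macrophages, read 10.24, 9.51 and 9.50 and 7.24, 6.08 and 6.54 and fell by 3.13 ± 0.30, or 8.75-fold (adjusted p = 0.00265). The adhesion receptor gene Vcam1 fell by 1.36 ± 0.22, the prostaglandin D synthase gene Hpgds by 2.38 ± 0.43 and Apoe by 0.88 ± 0.14. The complement gene C1qb fell by 0.99 ± 0.18 and C1qc fell by 1.12 ± 0.17. Their adjusted p-values were 0.0193, 0.0351, 0.0219, 0.033 and 0.0164, and their setting maxima lay between 0.0889 and 0.147. C1qb and C1qc lost their calls with each array centred on its median.

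Of 30 measured macrophage genes 8 fell (26.7%, against 0.491% of all genes) and 0 rose, with a median of -0.28. With the replicate number as a block 8 fell and 2 rose. Over all 30, 23 differences lay below 0 and 7 above. Among those that did not pass, Csf1r, the growth factor receptor of macrophages, read 10.84, 10.41 and 11.46 in LysoMac and 9.85, 9.80 and 10.34 in C5aR- LysoDC (-0.91 ± 0.28, adjusted p = 0.212). Adgre1, which encodes F4/80, differed by 0.60 ± 0.63, Fcgr1, which encodes CD64, by 1.81 ± 0.78, and Mrc1, the mannose receptor gene, by 2.37 ± 0.59, each above 0 in C5aR- LysoDC. In those 3 genes C5aR- LysoDC array 3 was the highest of its population, at 7.29, 7.87 and 6.67. The count of 8 became 2 when LysoMac array 1 was dropped, and 5, 2 or 4 when array 1, 2 or 3 of C5aR- LysoDC was.

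**Figure D4:**
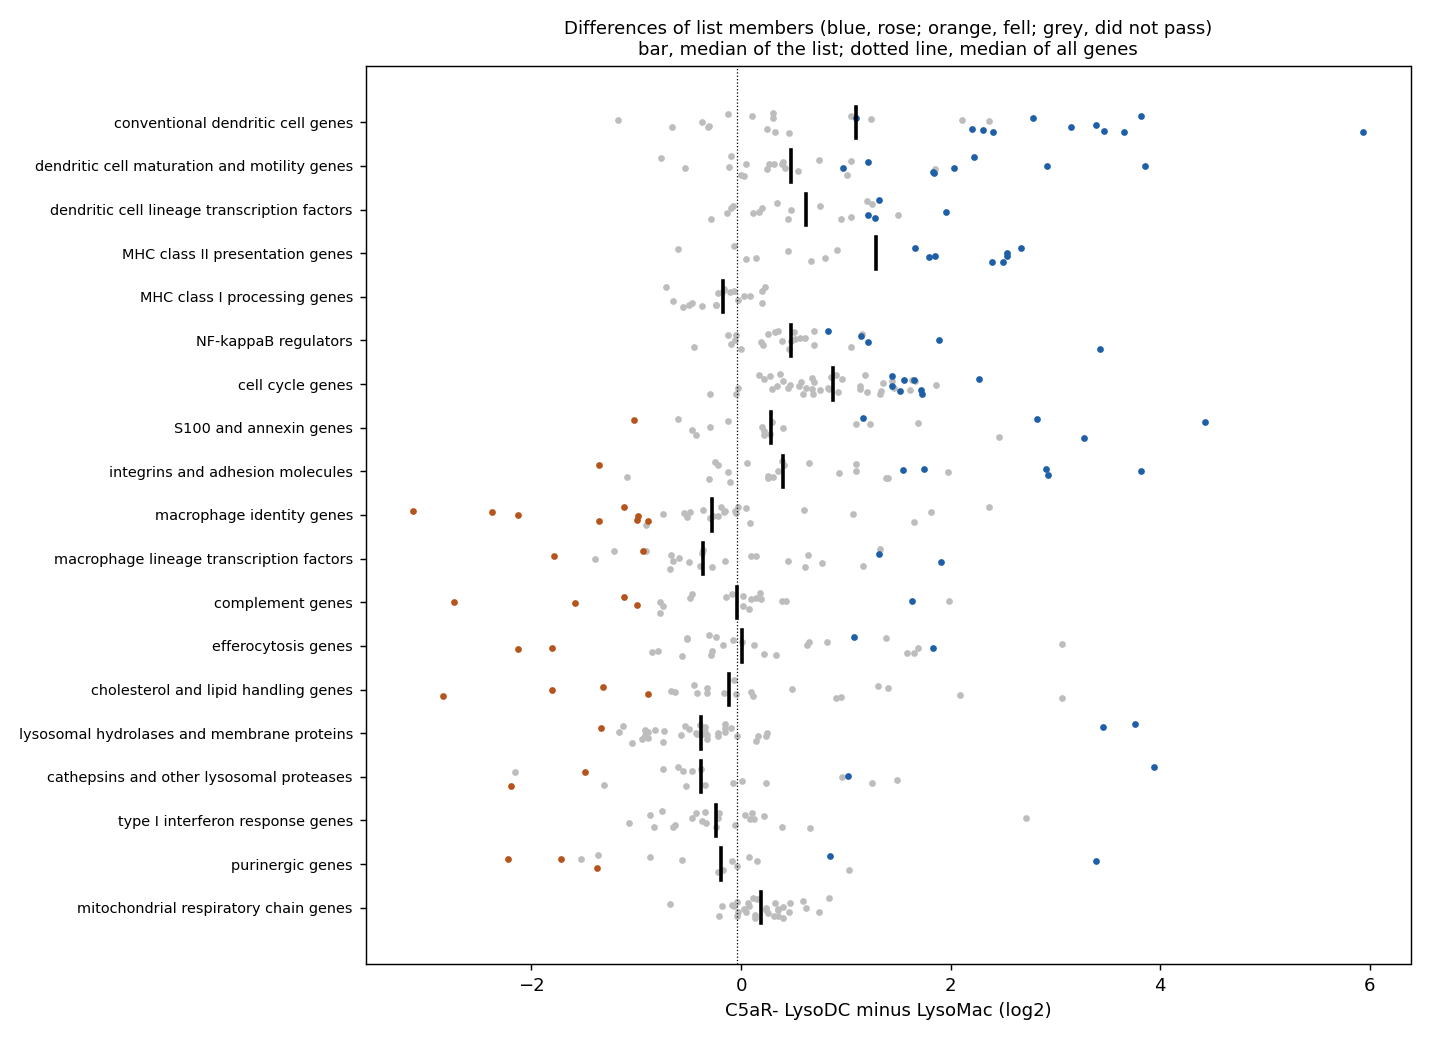
Each point is a gene of the list named at the left, placed by C5aR- LysoDC minus LysoMac (log2), blue where it rose, orange where it fell and grey where it did not pass. Black bars mark list medians, which run from -0.38 for the lysosomal lists to 1.29 for MHC class II, and the dotted line marks the median of all genes at -0.04.

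Lysosomal genes split. Most hydrolases and membrane proteins of the lysosome lay lower in C5aR- LysoDC, 30 of 36 having a difference below 0 with a median of -0.38, but only Pld3 passed among them, falling by 1.34 ± 0.24 (adjusted p = 0.0347, setting maximum 0.156). Of the list 2.78% fell, against 0.491% of all genes, and 5.56% rose, against 1.46%. After quantile normalization 7 fell and after cyclic loess 9, and the median was -0.15 without LysoMac array 3 and -0.60 without LysoMac array 2. Against that direction, Plbd1, a phospholipase of lysosomes, read 7.31, 6.95 and 7.89 in LysoMac and 10.82, 11.30 and 11.30 in C5aR- LysoDC and rose by 3.76 ± 0.34, or 13.5-fold (adjusted p = 0.00212). Pld4, an endolysosomal exonuclease, read 6.58, 6.78 and 6.85 and 9.74, 10.25 and 10.58 and rose by 3.46 ± 0.35 (adjusted p = 0.00304). The membrane genes Lamp1 and Cd63 differed by -0.50 ± 0.18 and -0.73 ± 0.19, and 0 of 16 genes of the proton pump passed (median -0.05; 1 higher and 3 lower in limma at an unadjusted p under 0.05). Its subunit gene Atp6v0d2, at 6.22, 3.63 and 7.53 in LysoMac and 2.28, 2.47 and 2.28 in C5aR- LysoDC, differed by -3.45 ± 0.84 (adjusted p = 0.0979), with LysoMac array 2 far below the other LysoMac arrays.

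Proteases of the same compartment went both ways. Ctsd, the aspartic protease cathepsin D, read 9.31, 8.96 and 9.67 in LysoMac and 7.24, 6.95 and 7.17 in C5aR- LysoDC and fell by 2.19 ± 0.21, or 4.57-fold (adjusted p = 0.00245). Lgmn, the asparaginyl endopeptidase legumain, read 5.76, 5.71 and 5.50 and 8.93, 9.57 and 10.31 and rose by 3.94 ± 0.49, or 15.4-fold (adjusted p = 0.00721). LysoMac arrays lay close together for Lgmn, while C5aR- LysoDC values spread from 8.93 to 10.31. Tpp1, a tripeptidyl peptidase, fell by 1.49 ± 0.30 and Cst3, the secreted cathepsin inhibitor cystatin C, rose by 1.02 ± 0.19 (setting maxima 0.209 and 0.174). Of 19 genes listed with the lysosomal proteases 2 rose and 2 fell (10.5% each, against 1.46% and 0.491% of all genes). The rises include the inhibitor gene Cst3, a call kept in 4 of 16 settings. The counts were 3 and 5 after cyclic loess and 3 and 4 after quantile normalization, and the median of -0.38 became -0.004 without LysoMac array 3. The palindrome of the CLEAR element, which TFEB and its relatives bind, occurred within 250 bases upstream of 64 of 16990 genes (0.377%). It was found before 1 of 32 listed hydrolase and membrane genes (Cln3) and 0 of 13 protease genes, and before 0 of 245 genes that rose and 0 of 85 that fell. The share over all genes is so low that sets of this size can easily hold 0. Only the exact letters were searched, so these counts do not show that such sites are absent.

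A few genes of lipid export and binding fell. Abca1, the cholesterol exporter, read 8.40, 7.99 and 8.94 in LysoMac and 6.82, 6.41 and 6.70 in C5aR- LysoDC and fell by 1.80 ± 0.24 (adjusted p = 0.00942, setting maximum 0.0538). Fabp5, a fatty acid binding protein, was bright everywhere and fell by 1.32 ± 0.20 (adjusted p = 0.0144, setting maximum 0.0823), with its 3 other clusters differing by -1.04 to -1.96. Gpnmb, a glycoprotein of lipid-laden macrophages, fell by 2.84 ± 0.51 (adjusted p = 0.0331, setting maximum 0.154), LysoMac array 3 being the highest at 8.89. Of 22 genes of cholesterol and lipid handling 4 fell (18.2%, against 0.491% of all genes) and 0 rose (median -0.12). Without LysoMac array 1 or C5aR- LysoDC array 2, 1 or 0 fell. Among 27 genes of efferocytosis, the uptake of dying cells, 14 differences lay above 0 and 13 below: Mertk and Abca1 fell while the bridging molecule gene Mfge8 rose by 1.83 ± 0.32 and the engulfment adaptor gene Elmo1 by 1.08 ± 0.22 (setting maxima 0.122 and 0.204). Of 20 scavenger receptors 1 fell, Colec12, by 1.92 ± 0.25 (adjusted p = 0.00846, setting maximum 0.0503), and 0 of 21 iron and heme genes passed (1 higher and 4 lower in limma at an unadjusted p under 0.05).

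Complement and nucleotide signalling genes fell in a few members. C2, a protease of the classical complement pathway, read 7.43, 5.69 and 6.93 in LysoMac and 4.47, 3.72 and 3.65 in C5aR- LysoDC and fell by 2.74 ± 0.41 (adjusted p = 0.0152, setting maximum 0.0878), LysoMac array 2 lying below the other LysoMac arrays. Of 22 complement genes 4 fell (18.2%, against 0.491% of all genes) and 1 rose, the dim Cr2 (1.64 ± 0.16), which B cells and follicular dendritic cells carry. The 4 include C5ar1, whose fall can follow from the sort and is no independent result. The count of 4 became 0 without LysoMac array 1, without C5aR- LysoDC array 2 or with the 2 populations alone, and 1 with each array centred on its median or without either other C5aR- LysoDC array. Ada, adenosine deaminase, fell by 2.22 ± 0.31 (adjusted p = 0.0118, setting maximum 0.0726), and the purinergic receptor genes P2ry12 and P2ry13 by 1.38 ± 0.23 and 1.72 ± 0.34 (setting maxima 0.108 and 0.195). Gpr171, listed with them, rose by 0.85 ± 0.13 (setting maximum 0.326), while its second cluster differed by -0.10.

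Matrix enzymes changed in both directions. Mmp2, gelatinase A, read 7.44, 7.20 and 9.21 in LysoMac and 4.38, 4.72 and 4.73 in C5aR- LysoDC and fell by 3.34 ± 0.47 (adjusted p = 0.0118, setting maximum 0.0624), LysoMac array 3 lying well above the other LysoMac arrays. Mmp14, which activates the MMP2 protein, fell by 1.59 ± 0.24, and the inhibitor gene Timp2 by 2.28 ± 0.32 (setting maxima 0.0747 and 0.0667). Mmp12, macrophage elastase, rose instead by 3.79 ± 0.56 from 3.66, 4.13 and 5.38 to 7.51, 8.58 and 8.45 (adjusted p = 0.0137, setting maximum 0.0823). Adam23, a disintegrin family member, rose by 3.56 ± 0.38 (adjusted p = 0.00398) and Mmp9 by 2.00 ± 0.40 (setting maximum 0.187), with Mmp25 and Adam8 at 1.38 and 2.20. In all, 5 of 25 matrix genes rose and 3 fell (1 and 1 without LysoMac array 1, and 1 and 0 without C5aR- LysoDC array 2).

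Microbial sensing changed at few points. Tlr7, the receptor for single-stranded RNA, read 8.20, 7.49 and 8.31 in LysoMac and 6.35, 5.19 and 6.09 in C5aR- LysoDC and fell by 2.12 ± 0.37 (adjusted p = 0.0305, setting maximum 0.132), and Tlr3, for double-stranded RNA, by 0.87 ± 0.17 (setting maximum 0.117). Of 21 Toll-like receptors and adaptors these 2 fell (9.52%, against 0.491% of all genes) and 0 rose. Among 25 C-type lectins 4 rose and 2 fell (1 and 0 without C5aR- LysoDC array 2): Clec4b1, dim in LysoMac, rose by 3.24 ± 0.46 (setting maximum 0.0682), whereas Clec4d, a receptor for mycobacterial lipids, fell by 2.75 ± 0.39 from 7.61, 7.70 and 8.67 to 4.92, 5.09 and 5.72 (adjusted p = 0.0124, setting maximum 0.0748). Ifi205, a DNA-sensor family member that is dim in LysoMac, rose by 4.49 ± 0.84 but varied widely within both populations (setting maximum 0.157). Of 23 genes of the type I interferon response 0 passed (median -0.24), Isg15 differing by 0.66 ± 0.36, and limma gave 2 higher and 2 lower at an unadjusted p under 0.05. The peptidoglycan-binding genes Pglyrp1 and Pglyrp2 rose by 2.42 ± 0.28 and 1.37 ± 0.18 (adjusted p = 0.00554 and 0.00881), and Pglyrp2 is dim (setting maximum 0.0524).

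Cytokines and their receptors gave few calls. Il1a, an alarm cytokine, read 9.30, 9.26 and 9.59 in LysoMac and 8.21, 7.31 and 7.78 in C5aR- LysoDC and fell by 1.61 ± 0.22 (adjusted p = 0.00996, setting maximum 0.0528), and Il18bp, a soluble inhibitor of IL-18, by 2.77 ± 0.54 (setting maximum 0.191). They were the 2 calls among 34 cytokines and growth factors (5.88%, against 0.491% of all genes that fell). Of the receptor genes a few rose: Kit, the stem cell factor receptor, read 6.33, 5.84 and 7.26 and 9.08, 10.19 and 9.0 and rose by 2.94 ± 0.41 (adjusted p = 0.0116, setting maximum 0.0658), and Il7r by 3.58 ± 0.70 (adjusted p = 0.0448, setting maximum 0.189). With Flt3 they were 3 of 33 receptor genes (9.09%, against 1.46% of all genes that rose). Among 20 genes of prostaglandins and leukotrienes, Hpgds fell and Alox5ap, which hands arachidonic acid to 5-lipoxygenase, rose by 3.72 ± 0.49 (adjusted p = 0.00948, setting maximum 0.0538), from 4.93, 4.89 and 3.90 to 8.03, 8.29 and 8.56, while its second cluster differed by -0.33.

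Several adhesion and motility genes rose in C5aR- LysoDC. Itgb7, the partner chain of CD103 and of the alpha4 integrin in gut homing, read 3.94, 3.79 and 3.99 in LysoMac and 6.32, 7.05 and 7.13 in C5aR- LysoDC and rose by 2.93 ± 0.36 (adjusted p = 0.00742). Itga4, the alpha4 chain, rose by 2.91 ± 0.43 (adjusted p = 0.0137, setting maximum 0.0823), so both partners of Itgb7 rose with it. Lsp1, an actin-binding protein of leukocytes, read 6.40, 6.39 and 6.37 and 9.41, 9.48 and 9.24, the tightest of these genes, and rose by 2.99 ± 0.13 (adjusted p = 7.53e-05). The calcium-binding genes S100a10, S100a4 and S100a11 rose by 4.43 ± 0.52, 3.28 ± 0.33 and 1.16 ± 0.14 (adjusted p = 0.00577, 0.00304 and 0.00616), and Anxa4, an annexin, fell by 1.02 ± 0.17 (setting maximum 0.115). Of 26 integrins and adhesion molecules 5 rose (19.2%) and 1 fell (3.85%), and of 20 S100 and annexin genes 4 rose (20.0%) and 1 fell (5.0%). Over all genes 1.46% rose and 0.491% fell.

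A few epithelial and M cell markers rose beside these adhesion genes. Cdh1, which encodes E-cadherin, the ligand of CD103, rose by 1.75 ± 0.28 (adjusted p = 0.0185, setting maximum 0.154), although its second cluster differed by -0.25, and Epcam, dim in LysoMac, by 1.54 ± 0.21 (setting maximum 0.054). Gp2, the bacterial uptake receptor of M cells, read 3.75, 3.56 and 3.34 in LysoMac and 6.93, 8.01 and 7.31 in C5aR- LysoDC and rose by 3.86 ± 0.32, or 14.6-fold (adjusted p = 0.00143). Pigr, the transporter of polymeric antibodies, rose by 3.23 ± 0.39 (adjusted p = 0.00672), and Cdh17, an intestinal cadherin that is dim in LysoMac, by 3.84 ± 0.32 (adjusted p = 0.00138). Cdh17 is in no list here; Cdh1, Epcam, Gp2, Pigr and Pglyrp1 were the 5 of 29 epithelial and M cell markers that rose, while 0 fell, and the median was 0.07. The 5 that rose are 17.2% of the list, against 1.46% of all genes. The mean level of the list was 4.02 to 4.22 in LysoMac arrays and 4.56 to 4.79 in C5aR- LysoDC arrays. Keratin genes did not pass, with 0.60 ± 0.23 for Krt8, 0.17 ± 0.37 for Krt18 and -0.13 ± 0.15 for Krt19, and Vil1, the villin gene of enterocytes, read 2.55, 2.40 and 2.59 in C5aR- LysoDC, below every array median. The part of such cells in the result was not tested.

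Some guidance receptors and other surface proteins changed, in both directions. Tspan10, a tetraspanin, read 8.55, 8.17 and 9.0 in LysoMac and 4.93, 4.17 and 4.84 in C5aR- LysoDC and fell by 3.92 ± 0.42, or 15.2-fold (adjusted p = 0.00398). Plxna2, a semaphorin receptor, fell by 3.05 ± 0.34 (adjusted p = 0.00428), Dkk3, a secreted modulator of Wnt signalling, by 2.93 ± 0.31 (adjusted p = 0.00389) and Pmp22, a myelin and junction protein, by 2.92 ± 0.23 (adjusted p = 0.00114). Gda, the guanine deaminase gene, fell by 2.35 ± 0.24 (adjusted p = 0.00304). Plxna4, another plexin, rose by 1.73 ± 0.30 (setting maximum 0.12), and Flrt3, a membrane protein of adhesion and guidance that is dim, by 4.09 ± 0.81 (adjusted p = 0.047, setting maximum 0.207). Of 28 genes of the guidance list 3 rose (10.7%, against 1.46% of all genes) and 2 fell (7.14%, against 0.491%), with a median of 0.06. When single arrays were left out, 1 to 3 rose and 1 to 3 fell. Plp2, a small membrane protein, read 4.71, 4.49 and 4.83 and 9.14, 8.75 and 8.06 and rose by 3.98 ± 0.29 (adjusted p = 0.00084).

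Regulators of NF-kappaB rose in 5 of 27 cases (18.5%, against 1.46% of all genes) with 0 falling (median 0.48). Tnip3, an inhibitor of that pathway, read 4.04, 3.64 and 4.45 in LysoMac and 6.96, 7.88 and 7.56 in C5aR- LysoDC and rose by 3.42 ± 0.38 (adjusted p = 0.00446). Map3k14, the kinase of the non-canonical arm, rose by 1.89 ± 0.25 (adjusted p = 0.00964, setting maximum 0.0526), and the subunit gene Rel by 1.15 ± 0.23 (adjusted p = 0.0469, setting maximum 0.203). Traf1 and Nfkbib were the others, at 1.21 and 0.83 (setting maxima 0.112 and 0.305).

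Cell cycle genes lay higher in C5aR- LysoDC, with 45 of 48 differences above 0 and the median difference at 0.88. Of the 48, 8 rose (16.7%, against 1.46% of all genes) while 0 fell. Kif23, a kinesin of cell division, read 4.22, 3.75 and 4.04 in LysoMac and 5.39, 5.89 and 5.87 in C5aR- LysoDC and rose by 1.71 ± 0.22 (adjusted p = 0.00806). Esco2, which sets cohesion between sister chromatids and is dim in LysoMac, rose by 1.45 ± 0.14 (adjusted p = 0.00265), and Cdc6, a licensing factor of replication, by 1.51 ± 0.21 (adjusted p = 0.0109, setting maximum 0.06). Top2a, Kif11, Mcm6, Ndc80 and Rrm1 rose by 1.44 to 2.27, Ndc80 being dim (setting maxima 0.104 for Ndc80 and 0.116 for Rrm1). Mki67, the usual marker of proliferation, did not pass, at 6.29, 5.47 and 7.66 in LysoMac and 7.36, 8.73 and 8.30 in C5aR- LysoDC (1.66 ± 0.54, adjusted p = 0.226). LysoMac array 3 was the highest LysoMac array for Mki67, Top2a and Kif11, and C5aR- LysoDC array 1 the lowest of its population for all 3. Dropping LysoMac arrays 1, 2 or 3 changed the count of 8 to 2, 3 or 14. It was 5 or 4 when array 1 or 2 of C5aR+ LysoDC was dropped, and 2 or 3 when array 2 or 3 of C5aR- LysoDC was.

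Basic metabolism gave few calls. Of 32 genes of the mitochondrial respiratory chain 0 passed (median 0.19), 2 being higher and 0 lower in limma at an unadjusted p under 0.05. Of 17 glycolysis genes 1 rose, the muscle-type enolase gene Eno3, by 0.98 ± 0.18 (setting maximum 0.158). Retinoic acid genes gave 0 calls of 16 (2 higher and 2 lower in limma at an unadjusted p under 0.05), and the enzyme gene Aldh1a2, which gut dendritic cells use to make retinoic acid, differed by 1.39 ± 0.30 (adjusted p = 0.0628).

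Markers of further cell types moved in single members. Jchain of the plasma cell list rose by 3.10 ± 0.37 (adjusted p = 0.00596), from 4.27, 3.01 and 3.41 to 6.58, 6.67 and 6.75, with Irf4 the other of 2 calls among 11 genes. Of 16 natural killer and innate lymphoid markers 3 rose, Cd7, Il7r and Tbx21 (1.34 ± 0.24, setting maximum 0.0964), and the mean level of that list was 3.26 to 3.61 in LysoMac arrays and 4.13 to 4.40 in C5aR- LysoDC arrays. Of 15 T cell markers 1 fell, Cd4, itself a target of the sort, with Cd3e at -0.80 ± 0.39 and Cd3g at -0.51 ± 0.36, neither passing. Of 17 monocyte genes 2 rose, S100a4 and Plac8 (4.72 ± 0.55, adjusted p = 0.00561), and Ly6c2 was uneven, at 5.24, 3.80 and 6.47 in C5aR- LysoDC arrays. Neutrophil markers rose in 2 of 16 cases (Mmp9 and Trem1, the latter by 1.46 ± 0.20, setting maximum 0.0526) and mast cell and eosinophil markers in 1 of 16 (Kit). Plasmacytoid dendritic cell markers rose in 2 of 15 (Atp1b1 by 3.23 ± 0.33 and Cd209d by 1.35 ± 0.23, both dim, the latter with a setting maximum of 0.101) and fell in 1 (Tlr7), and their gene Siglech differed by -0.73 ± 0.40. Lum of the stromal list and Kdr of the endothelial list rose by 2.77 and 0.82 (setting maxima 0.134 and 0.109), 1 of 17 and 1 of 16 genes, and Lum, dim in LysoMac, read 5.52, 5.84 and 3.49 in C5aR- LysoDC. Erythroid and platelet markers and enteric glia and neuron markers gave 0 calls of 8 each, with 3 and 0 genes past an unadjusted p under 0.05 in limma. Over all genes 1.46% rose and 0.491% fell. In lists of this size a single called gene is 5.88% or more of the list. The part of such cells in the increases was not tested.

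**Figure D5:**
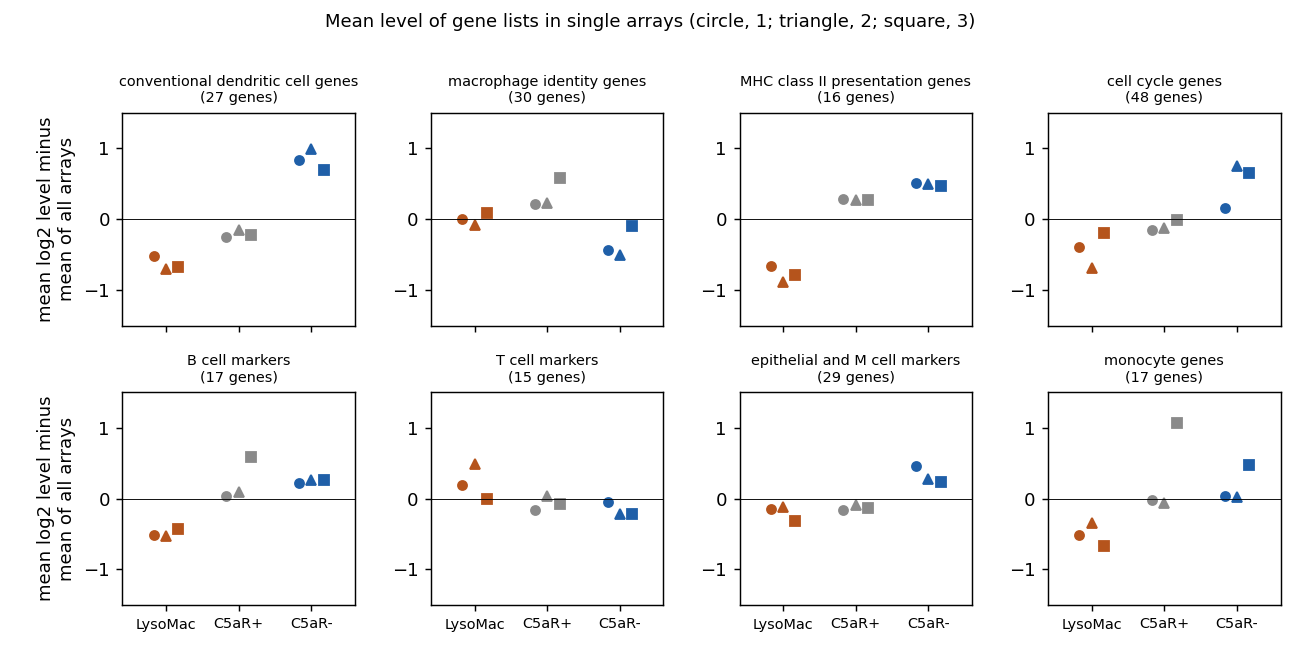
Each point is the mean log2 level of a gene list in 1 array, less the mean of that list over the 9 arrays, with LysoMac in orange, C5aR+ LysoDC in grey and C5aR- LysoDC in blue. Dendritic cell, MHC class II, cell cycle, B cell, epithelial and monocyte lists lie higher in all 3 C5aR- LysoDC arrays than in any LysoMac array. Macrophage identity and T cell lists lie lower. Of the 8 lists shown the spread between arrays is widest for monocyte genes, whose mean level runs from 4.29 to 6.03.

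The mean of C5aR+ LysoDC lay between the other 2 means for 296 of the 324 genes that rose and 107 of the 109 that fell. Within that range its place differed between genes, and those named here were picked. The difference between both LysoDC populations was tested directly, and 31 of 22180 genes passed (0.140%). Of the 324 genes that rose 28 were also higher in C5aR- than in C5aR+ LysoDC, and of the 109 that fell 1 was also lower. For class II genes that difference did not pass: C5aR+ LysoDC read 11.99, 12.06 and 11.93 for H2-Ab1 and 7.44, 7.59 and 7.70 for H2-Aa, and C5aR- minus C5aR+ was 0.05 and -0.03. Nor did it pass for Lgmn, at 9.30, 9.98 and 11.31 in C5aR+ LysoDC (-0.59, adjusted p = 1), or for Plbd1, at 9.77, 10.23 and 11.04 (0.79, adjusted p = 0.882). Itgae read 5.15, 5.23 and 4.84, Flt3 4.23, 4.47 and 4.47 and Cd7 5.15, 5.74 and 5.59 in C5aR+ LysoDC, all below C5aR- LysoDC by 2.67, 2.69 and 4.88 (adjusted p = 0.00364, 0.0355 and 0.0335). Lsp1, Gp2, Tnip3 and S100a4 were likewise higher in C5aR- than in C5aR+ LysoDC, by 1.66, 3.29, 3.19 and 2.69 (adjusted p = 0.00701, 0.0136, 0.0335 and 0.0346). Among decreases, Ms4a7 read 9.15, 9.02 and 8.87 in C5aR+ LysoDC and was lower in C5aR- LysoDC (-2.39, adjusted p = 0.0346). Mertk, at 7.69, 7.28 and 6.54 in C5aR+ LysoDC, differed by -1.35 (adjusted p = 0.157) and Ctsd, at 8.52, 8.18 and 8.07, by -1.14 (adjusted p = 0.116), which did not pass. Ccr7 took a middle position, at 6.17, 6.77 and 6.77 (1.85, adjusted p = 0.0735). These comparisons share the C5aR- LysoDC arrays with the main one, so they are not independent of it.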

How the data were processed

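Gene expression was measured on whole-transcript mouse arrays by amplifying total RNA of sorted cells with a low-input kit, per the labels' protocols. For each cluster and array the authors deposited a log2 expression value made with RMA and Affymetrix Power Tools, per the submitters' processing notes, which give no versions. No further normalization or filter was applied. Arrays were grouped by title. In arrays 2 and 3 of C5aR- LysoDC the source field names another receptor than the title and description do.

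The test was limma (version 3.58.1, under R 4.3.3), fitted to all 9 arrays with a mean for each of 3 populations and 6 residual degrees of freedom, two-sided, and adjusted by Benjamini-Hochberg over 33793 clusters. The fit was checked on simulated data. These gave all populations the same variance, so the check cannot show how the fit handles the wider spread of LysoMac. As separate animals are not stated, p-values reflect only how these samples vary, possibly technically, and the small number of arrays limits precision (median SE 0.20). Symbols came from the platform annotation: 8458 clusters had none and 1814 had several and are not named. Of 1082 genes with several clusters the brightest stands for the gene.

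The comparison, 53 gene lists (1021 of 1109 genes matched) and the alternatives were chosen with earlier results of these data known. Named genes were the marker and sort genes, the 15 largest increases and decreases, up to 5 called members of each list (the 2 brightest where none passed) and the 10 smallest p-values. The largest changes exclude predicted and small RNA genes, olfactory and vomeronasal receptors and segments of antigen receptors. Genes named beyond this rule, such as Ciita, Cadm1 and Top2a, and every member given without a call, were chosen after their values were seen.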

Additional observations from a re-analysis of the deposited data

How the results depend on the processing

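Against 381 increases and 137 decreases, the 2 populations alone gave 189 and 48, and 1 weight per population 193 and 61. The replicate number as a block gave 490 and 219, quantile normalization 436 and 274, and cyclic loess 444 and 291. Weights per array gave 2991 and 3691, so that decreases outnumbered increases; there LysoMac array 1 took a weight of 7.13 and LysoMac array 2 one of 0.243. Leaving out each array gave 108 to 822 increases and 22 to 434 decreases. Median centring, the variance trend, robust moderation, the filter on dim clusters, clusters with 1 symbol and a 2-fold minimum left both counts within 1.5 times, and the largest shift of the overall median difference by a scaling was 0.076. Same-numbered arrays of the compared populations deviated from their means with correlations of 0.173, -0.112 and 0.129, so the numbers were not taken to pair the arrays, though the labels do not say whether a number marks a shared day; 8 of 130 named calls were lost with the block. Of 848 list medians under other settings 799 moved by less than the SD of the list's mean over the LysoMac arrays, and 0 of those larger than that SD changed sign. The cause of these shifts was not tested. Signal near background limits genes called dim.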

Other observations

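Genes outside the lists, chosen after their values were seen, also rose in C5aR- LysoDC. Their setting maxima were not computed, so these calls may not hold under other settings. Il2rb, a chain of the IL-2 and IL-15 receptors, read 3.75, 3.90 and 3.66 in LysoMac and 7.64, 7.28 and 6.21 in C5aR- LysoDC and rose by 3.27 ± 0.36 (adjusted p = 0.00428). Stat4, which relays IL-12, rose by 2.97 ± 0.43 (adjusted p = 0.0126), from 4.27, 3.88 and 5.47 to 7.03, 8.21 and 7.29, and Stat5a by 1.65 ± 0.33 (adjusted p = 0.0459). The chemokine gene Xcl1 rose by 2.43 ± 0.42, and of 23 killer cell lectin-like receptor genes Klri1 and Klrg1 rose by 3.02 ± 0.46 and 2.52 ± 0.49, all 3 dim in LysoMac. The transcription factor genes Mef2c and Myb rose by 2.94 ± 0.32 (adjusted p = 0.00423) and 1.20 ± 0.16 (adjusted p = 0.00942). The carbonic anhydrase gene Car2 rose by 3.64 ± 0.40 and the protease gene Tmprss11d, dim in LysoMac, at 2.06, 2.01 and 1.74 in LysoMac and 5.03, 6.17 and 5.09 in C5aR- LysoDC, by 3.49 ± 0.30 (adjusted p = 0.0015).

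Gene families read by symbol, also after values were seen, gave few calls. Setting maxima were not computed for the called genes, except Serpinb6b. Of 67 ribosomal protein genes 5 rose (Rpl14, Rpl29, Rpl37, Rps27 and Rpsa, by 0.75 to 1.25, Rpl37 being dim in both populations) and 0 fell, 52 lay above 0 and the median was 0.38. Of 4 metallothionein genes Mt1 and Mt2 fell, by 1.46 ± 0.27 and 1.87 ± 0.38 (adjusted p = 0.0374 and 0.0481). Of 12 formin genes, which build actin filaments, Diaph2, Diaph3 and Fmnl1 rose, by 2.79 ± 0.46, 1.40 ± 0.25 and 1.70 ± 0.16. Of 25 clade B serpins, inhibitors of intracellular proteases, Serpinb1a, Serpinb6b and Serpinb9 rose, by 3.57 ± 0.52, 2.92 ± 0.27 and 1.77 ± 0.32. Over all genes 1.46% rose and 0.491% fell, and no test was made of these families.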
